A study of Danio rerio with 19 samples.

Results

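The Hox genes of zebrafish were described here from poly-A RNA of sperm, egg, 1k-cell embryos and germ ring embryos. Members were all gene names made of hox, a cluster letter (a, b, c or d) and a number, which gave 48 genes of the 14244 gene names in the expression tables. They lie in 7 clusters and fall into 13 paralogue groups. The study followed DNA methylation from the gametes into the early embryo, and the RNA libraries give the transcripts present at the same stages.

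Hox genes encode homeodomain transcription factors that give cells their position along the head-to-tail axis. They sit side by side in clusters, and their order in a cluster follows the order of their expression domains, with low-numbered groups acting in the hindbrain and high-numbered groups in the tail and the fins. In vertebrate embryos they are generally switched on in sequence from gastrulation onwards, under the influence of retinoic acid, Wnt and Fgf signals and Caudal factors, and Polycomb proteins hold them silent where they are not needed.

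All 4 libraries carry the strain label Tubingen. The sperm and egg libraries are labelled as gametes, and the 1k-cell library (a mid-blastula embryo) and the germ ring library (an embryo at the start of gastrulation) as whole embryos. No genotype change or treatment is given, and each group has 1 library, so there is no test, and each interval below covers counting error only. The RNA protocol in the labels describes homogenized whole embryos and does not say how the gametes were collected. In the labels of the bisulfite libraries, sperm came from disrupted testis and eggs were squeezed from females.

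Values are normalized counts, which are read counts divided by 1 scaling factor per library. They are not corrected for gene length, so each gene or sum was compared with itself between libraries. The read counts were recovered from the smallest step between values. The libraries held between 9241829 (egg) and 24256918 (1k-cell) reads on genes, and 1 read was worth between 0.951 (1k-cell) and 1.98 (egg) normalized counts. The labels fit the markers in part. Flagellum genes summed to 124332 in sperm and to between 137 and 838 in the other libraries. All 18 gastrula markers reached 10 normalized counts in germ ring, against 73.4% of all genes. The sperm library also held markers of other cells. All 11 testis somatic markers reached 10 there, with a sum of 17984 against 2779 to 7252 elsewhere. So did 9 of 10 red blood cell, 12 of 14 muscle and 7 of 7 kidney markers. For neural, fibroblast and epidermal markers the counts were 9 of 9, 9 of 10 and 9 of 9. Over all genes 86.5% reached 10 in sperm, so these counts alone do not mark a cell type. Red blood cell genes summed to 90617 against 43.7 to 119 elsewhere, and muscle genes to 2553 against 19.8 to 131. Kidney markers summed to 1862 in sperm and 1639 in germ ring, and neural markers to 1066 and 648. Epidermal and fibroblast sums in sperm, 14180 and 4802, were below those in egg. The part of these cells in the sperm Hox values was not tested. Oocyte and egg markers summed to 216029 in sperm and 258218 in egg. The egg library held 9 of 9 epidermal markers with a sum of 122167, against 630 in 1k-cell embryos, and 8 of 10 fibroblast markers with 8590 against 218. Over all genes 67.7% reached 10 in egg. In bulk RNA, fewer cells of a type and less RNA per cell cannot be told apart.

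Hox genes had few reads in all 4 libraries, most in sperm and fewest in germ ring. The 48 members summed to 1728 normalized counts in sperm (95% counting interval 1647 to 1811), 623 in egg (556 to 696), 756 in 1k-cell embryos (704 to 810) and 231 in germ ring (195 to 270). As a share of the reads on genes these sums were 0.00823%, 0.00340%, 0.00328% and 0.00104%. At the onset of gastrulation, the stage from which Hox genes are classically described as active, the sum was the smallest of the 4, and this order between the 1k-cell and germ ring libraries held under each scaling tried.

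Of the 48 members, 33 reached 10 normalized counts in sperm, 13 in egg, 13 in 1k-cell embryos and 8 in germ ring. Over all genes the shares at that level were 86.5%, 67.7%, 71.1% and 73.4%. No read was found for 2 members in sperm, 23 in egg, 13 in 1k-cell embryos and 23 in germ ring. A read in all 4 libraries was found for 15 members. The shares of all genes with no read, or with a read in all 4, are not given here. Sperm had the highest value for 34 of the 48 members, egg for 6, 1k-cell embryos for 7 and germ ring for 1, which was hoxb1a with 2 reads. Over all genes with a read, the shares were 45.7%, 11.3%, 26.7% and 16.3%. Among the 38 members that reached 10 in any library, 27 were highest in sperm, 4 in egg, 7 in 1k-cell embryos and 0 in germ ring, against 43.5%, 11.7%, 28.1% and 16.6% of all such genes.

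**Figure D1:**
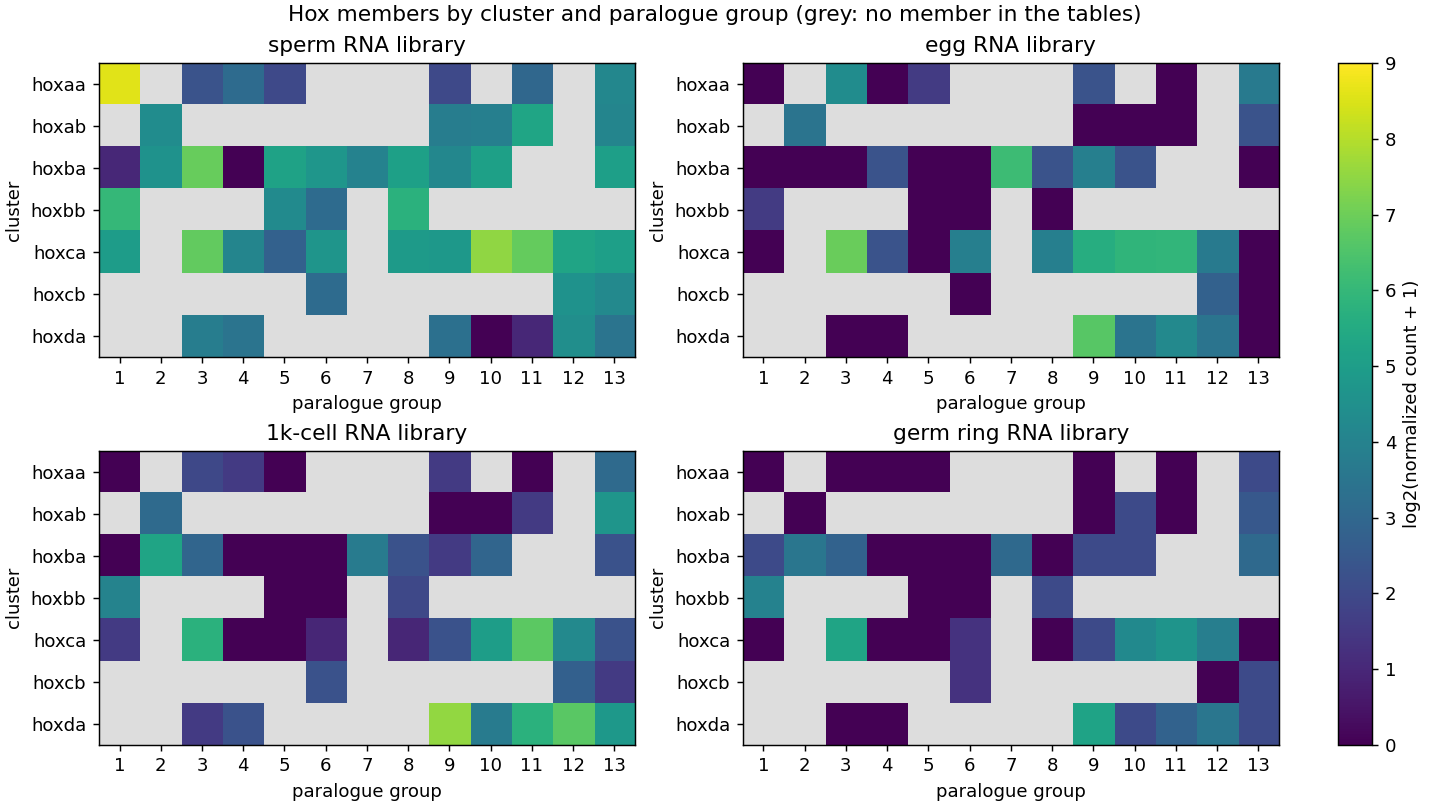
Each panel is an RNA library, with the 7 clusters as lines and the 13 paralogue groups as columns, and the colour gives log2 of the normalized count plus 1. Sperm shows signal across all clusters, the 1k-cell library holds most of its signal in groups 9 to 13 of the hoxda and hoxca clusters, and germ ring is the dimmest panel.

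Paralogue groups 1 to 4, which pattern the hindbrain and the front of the trunk, have 14 members. Their summed normalized count was 803 in sperm (748 to 860), 161 in egg (128 to 200), 132 in 1k-cell embryos (111 to 156) and 72.3 in germ ring (53.3 to 95.9). Groups 5 to 8, of the trunk, have 12 members, and their sum was 260 in sperm, 105 in egg, 24.7 in 1k-cell embryos and 13.6 in germ ring. Groups 9 to 13, of the rear trunk, tail and fins, have 22 members, and their sum was 665 in sperm (615 to 717), 357 in egg (307 to 413), 599 in 1k-cell embryos (553 to 648) and 145 in germ ring (117 to 177). The groups 9 to 13 thus summed nearly as high in 1k-cell embryos as in sperm, while the other groups were several-fold lower there. Of groups 9 to 13, hoxd9a to hoxd13a gave 380 of the 599 in 1k-cell embryos and 40.7 of the 665 in sperm. Of groups 1 to 4, hoxa1a gave 381 of the 803 in sperm and had no read in 1k-cell embryos. The contrast between the classes, and the shares that follow, thus rest in large part on these genes. The share of groups 9 to 13 in the Hox reads, which does not depend on the scaling between libraries, was 38.5% in sperm (36.2 to 40.8), 57.3% in egg (51.6 to 62.9), 79.2% in 1k-cell embryos (76.3 to 82.0) and 62.7% in germ ring (54.6 to 70.4).

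**Figure D2:**
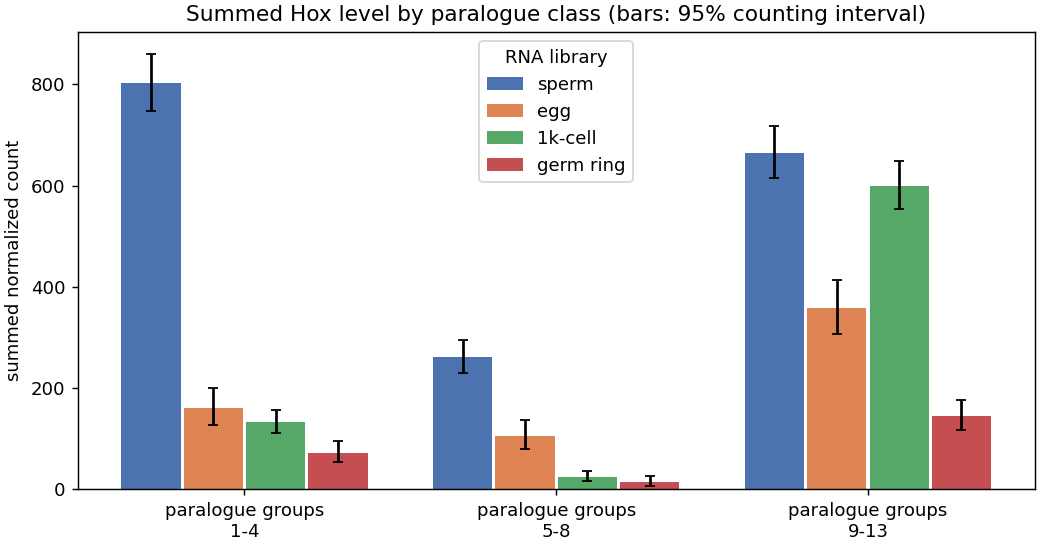
The bars give the summed normalized count of the members of 3 paralogue classes in the 4 RNA libraries, with the 95% counting interval. Groups 9 to 13 are at 665 in sperm and 599 in 1k-cell embryos, whereas groups 1 to 4 are at 803 and 132. Of these, hoxd9a to hoxd13a gave 380 of the 599, and hoxa1a gave 381 of the 803.

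Of the 630 reads of groups 9 to 13 in 1k-cell embryos, 400 came from 5 neighbouring genes of the hoxda cluster, hoxd9a to hoxd13a, a set singled out after its values were seen. The genes belong to the posterior groups, which in fish and mice pattern the fins or limbs and the tail. Together they summed to 40.7 normalized counts in sperm (29.2 to 55.3), 137 in egg (107 to 173), 380 in 1k-cell embryos (344 to 419) and 58.8 in germ ring (41.8 to 80.3). Their share of all Hox reads was 2.36% in sperm (1.70 to 3.18), 22.0% in egg (17.5 to 27.0), 50.3% in 1k-cell embryos (46.8 to 53.8) and 25.5% in germ ring (18.8 to 33.2). As the set was singled out after its values were seen, the order of these shares is a description only. The intervals do not cover that choice.

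The gene hoxd9a, a member of the group nearest the trunk in this block, had 8.94 normalized counts in sperm, 99.2 in egg, 186 in 1k-cell embryos and 36.2 in germ ring. It was 5.15-fold lower in germ ring than in 1k-cell embryos (3.36 to 8.24) and 11.1-fold higher in egg than in sperm (5.40 to 25.7), a log2 ratio of 3.33 that median-of-ratios size factors raised to 4.54. The 1k-cell value was 1.88-fold that of egg (1.37 to 2.62), but its log2 value of 0.90 became -0.37 with median-of-ratios size factors and -0.43 with upper-quartile scaling. So its order between egg and the 1k-cell stage depends on the scaling, while germ ring was lower than the 1k-cell stage under each scaling tried. The 1k-cell value was 20.8-fold that of sperm (10.8 to 46.3).

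The gene hoxd12a had 20.9 normalized counts in sperm, 9.92 in egg, 102 in 1k-cell embryos and 10.5 in germ ring. The 1k-cell library alone was high: it was 10.3-fold above egg (4.26 to 32.2), 4.88-fold above sperm (3.03 to 8.20) and 9.65-fold above germ ring (4.52 to 24.6). The log2 ratio to egg of 3.23 became 2.01 with median-of-ratios size factors. For hoxd11a the values were 0.993 in sperm (1 read), 17.9 in egg, 53.2 in 1k-cell embryos and 6.03 in germ ring. It was 2.98-fold higher in 1k-cell embryos than in egg (1.46 to 6.85), but its log2 ratio of 1.52 became 0.28 with median-of-ratios size factors, which is within 2-fold. It was 8.83-fold lower in germ ring than in 1k-cell embryos (3.26 to 33.5). The remaining pair of the block ran at lower counts, with the same highest library as deposited. The gene hoxd13a, of the group that forms the far end of fins and limbs, had 9.93 in sperm, 0 in egg, 26.6 in 1k-cell embryos and 3.01 in germ ring. The gene hoxd10a had 0, 9.92, 12.4 and 3.01 in the same order, and its 4.1-fold lower value in germ ring than in 1k-cell embryos has an interval of 0.929 to 37.4. Its intervals in egg (3.22 to 23.2) and 1k-cell embryos (6.58 to 21.1) overlap, so its highest library is not settled.

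The high 1k-cell values did not extend over the whole cluster. The genes hoxd3a and hoxd4a, at its anterior end, summed to 22.8 in sperm and 5.70 in 1k-cell embryos, with no read in the remaining libraries. The gene evx2, an even-skipped homologue next to hoxd13a, had 105 in sperm, 0 in egg, 4.75 in 1k-cell embryos and 1.51 in germ ring. On the other side hnrnpa3, an RNA-binding protein gene next to hoxd3a, had 1337 in sperm, 3.97 in egg, 40.9 in 1k-cell embryos and 25.6 in germ ring. Both flanking genes were thus highest in sperm, as were hoxd3a and hoxd4a. In sperm hoxd9a, hoxd10a and hoxd11a had 9, 0 and 1 reads, while hoxd12a had 21 and hoxd13a had 10.

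**Figure D3:**
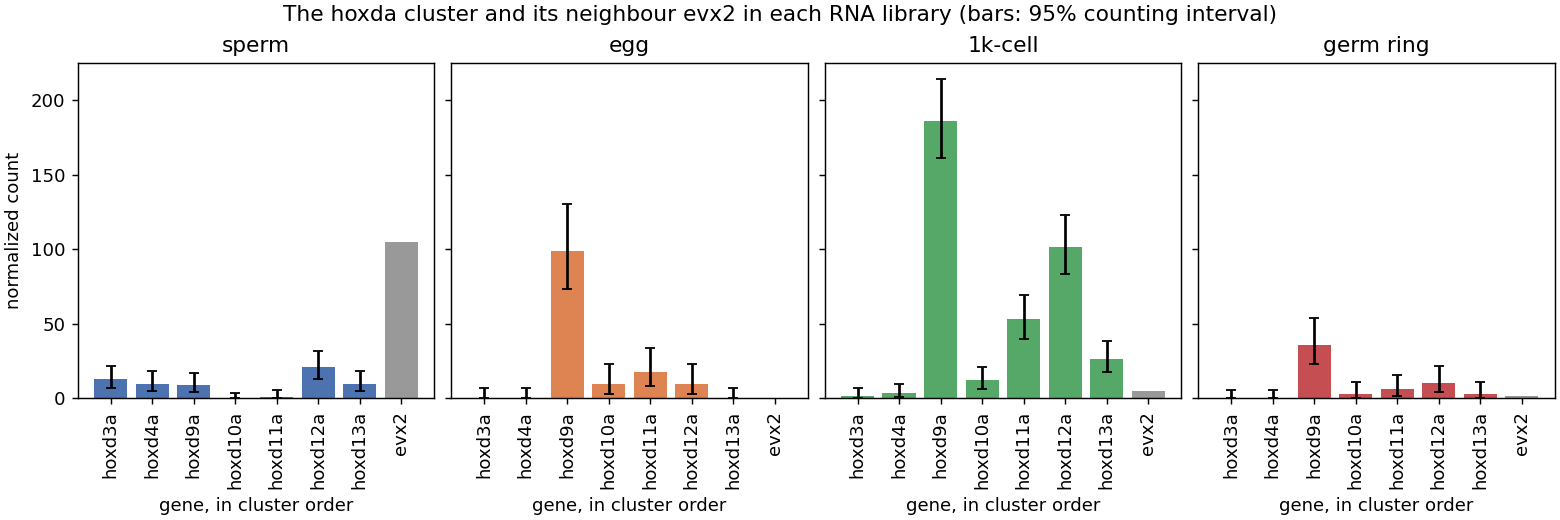
The panels give the normalized count of the 7 hoxda genes in cluster order and of the neighbouring evx2 in each RNA library, with 95% counting intervals for the Hox genes. At the 1k-cell stage hoxd9a stands at 186, hoxd12a at 102 and hoxd11a at 53.2, while evx2 stands at 105 in sperm and 4.75 in 1k-cell embryos.

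The 4 members at 10 or more in all 4 libraries, hoxc3a, hoxc10a, hoxc11a and hoxc12a, all belong to the hoxca cluster. The share of all genes at that level in all 4 is not given here. The set turns on few reads. The gene hoxd12a missed the level only in egg (9.92, 5 reads) and hoxd9a only in sperm (8.94, 9 reads). In egg hoxc12a passed it on 6 reads. The gene hoxc11a, of a posterior group, had 116 in sperm, 59.5 in egg, 106 in 1k-cell embryos and 24.1 in germ ring. It was 4.38-fold lower in germ ring than in 1k-cell embryos (2.58 to 7.92), and thus lower like hoxd9a to hoxd13a. Its 1.77-fold higher value in 1k-cell embryos than in egg (1.18 to 2.75) turned to -0.45 on the log2 scale with median-of-ratios size factors. Its 1.95-fold lower value in egg than in sperm also turned, from a log2 ratio of -0.95 to 0.30 with the same size factors. The gene hoxc10a, of the rear trunk, had 180 in sperm, 57.6 in egg, 31.4 in 1k-cell embryos and 18.1 in germ ring, and its egg to sperm log2 ratio of -1.63 became -0.37 with those size factors. For hoxc3a the values were 113, 121, 53.2 and 37.7, with an egg to sperm ratio of 1.07 (0.770 to 1.47) and lower values in the embryos. The egg to sperm log2 ratio of 0.10 became 1.35 with median-of-ratios size factors, past 2-fold. Its RefSeq span overlaps those of hoxc4a, hoxc5a, hoxc6a, hoxc8a and hoxc9a, so reads of these genes cannot be assigned with certainty. The germ ring to 1k-cell log2 ratio of hoxc3a was -0.49, and 0.02 under median-of-ratios scaling. The gene hoxc12a had 36.8 in sperm, 11.9 in egg, 18.1 in 1k-cell embryos and 13.6 in germ ring, which completes the 4 hoxca genes found at 10 or more in germ ring.

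Among the anterior genes hoxa1a, a labial-class gene, stood apart by its reads in sperm. It had 381 normalized counts there (344 to 422, from 384 reads) and no read in egg, the 1k-cell stage or germ ring. With 3 reads put for each count of 0, it was 64.1-fold lower in egg, 134-fold in 1k-cell embryos and 84.4-fold in germ ring. Counting error is not in these folds. All of its reads thus came from the library that also held markers of other tissues. The gene hoxb3a, of a group that acts in the hindbrain, had 120 in sperm, 0 in egg, 6.66 in 1k-cell embryos and 6.03 in germ ring, and its span overlaps hoxb4a, hoxb5a and hoxb6a. The gene hoxb8b had 52.7 in sperm, 0 in egg, 2.85 in 1k-cell embryos and 3.01 in germ ring.

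In all, 8 members were found in sperm alone: hoxa1a, hoxa9b, hoxa11a, hoxb5a, hoxb5b, hoxb6a, hoxb6b and hoxc5a. All 4 genes of the hoxb5 and hoxb6 pairs are among them, with 35.8 for hoxb5a, 25.8 for hoxb6a, 18.9 for hoxb5b and 7.95 for hoxb6b. By RefSeq span, hoxb5a and hoxb6a overlap hoxb3a, hoxb5b and hoxb6b overlap hoxb1b, and hoxc5a overlaps hoxc3a. Of these, hoxb3a, hoxb1b and hoxc3a had 7, 16 and 56 reads in 1k-cell embryos and 4, 10 and 25 in germ ring. Reads in these spans cannot be assigned with certainty. At the depth of the other libraries a count of 0 allows up to 5.95 normalized counts in egg, 2.85 in 1k-cell embryos and 4.52 in germ ring, so hoxa11a, hoxb6b and hoxc5a, with 6 to 8 reads in sperm, lie close to what those depths can show. Sperm had 21138688 reads on genes, against 9241829 in egg and 14753999 in germ ring. The 1k-cell library was deeper than sperm, with 24256918 reads, and also had no read for these 8 members. The share of all genes found in sperm alone is not given here, so the 8 members are a description only.

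The gene hoxb1b, which in zebrafish patterns the hindbrain and is known as one of the earliest Hox genes of the gastrula, had 62.6 in sperm, 1.98 in egg (1 read), 15.2 in 1k-cell embryos (16 reads) and 15.1 in germ ring (10 reads). The embryo libraries differed by less than counting error, with a germ ring to 1k-cell log2 ratio of -0.01 as deposited and 0.47 with median-of-ratios size factors. Germ ring was 7.59-fold above egg, with an interval of 1.08 to 329. Its paralogue hoxb1a had 1 read in sperm and 2 in germ ring. The gene hoxb2a, also of the hindbrain, had 22.8 in sperm, 0 in egg, 37.1 in 1k-cell embryos and 10.5 in germ ring. Both hoxb1b and hoxb2a had at least 7 reads in each embryo library and at most 1 in egg, and the span of hoxb1b overlaps hoxb5b and hoxb6b.

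Egg stood highest for a few members. The gene hoxb7a, a trunk gene, had 14.9 in sperm, 71.4 in egg, 12.4 in 1k-cell embryos and 7.53 in germ ring, and was 4.79-fold higher in egg than in sperm (2.56 to 9.43) and 5.78-fold lower in 1k-cell embryos than in egg (2.99 to 11.9). With median-of-ratios size factors these log2 ratios went from 2.19 to 3.41 and from -2.44 to -3.67. Likewise hoxc9a had 26.8, 47.6, 3.80 and 3.01 in the same order, and hoxa3a had 3.97, 19.8, 2.85 and 0. The 2 remaining members with their highest value in egg, beside hoxc3a, were hoxa9a and hoxb4a with 2 reads each.

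**Figure D4:**
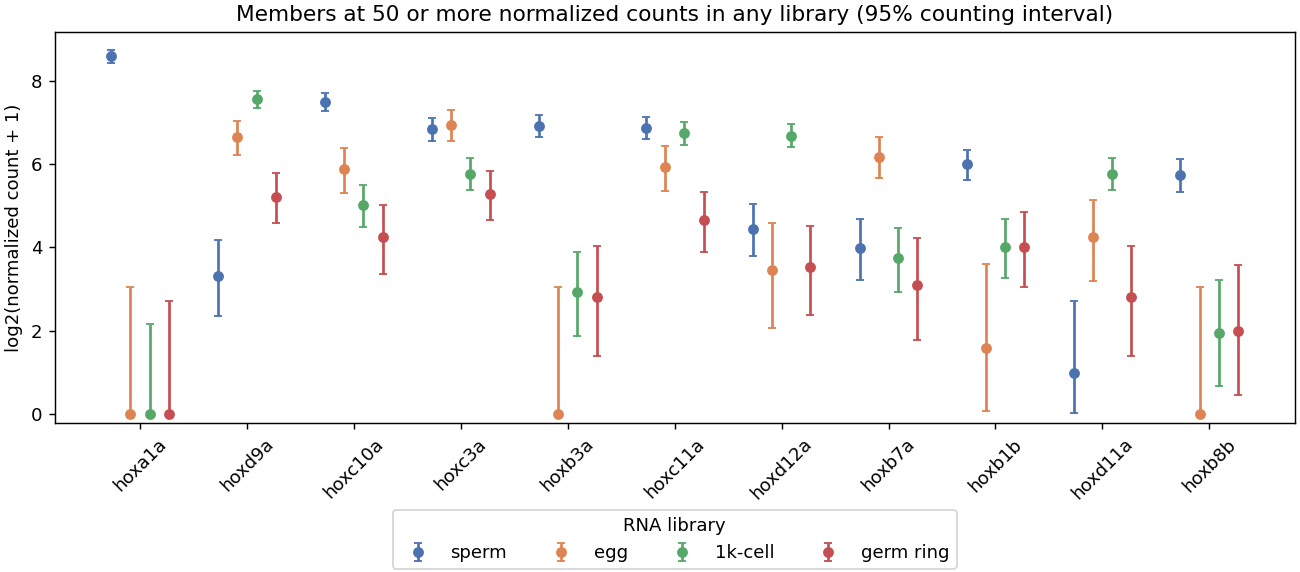
Points give log2 of the normalized count plus 1 in each of the 4 RNA libraries, with the 95% counting interval, for the 11 members at 50 or more in any library. The 1k-cell point is the highest for hoxd9a, hoxd12a and hoxd11a, the egg point for hoxb7a, and the sperm point for hoxa1a, hoxc10a, hoxb3a, hoxb1b and hoxb8b. For hoxc3a the sperm and egg intervals overlap, and for hoxc11a those of sperm and 1k-cell embryos.

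The remaining members were low. Of the 48, 11 reached 50 in some library, 27 had a highest value from 10 to under 50, and 10 stayed under 10 in all libraries. Those not yet described with a highest value between 10 and 50 had it in sperm, with the exception of hoxa13b. Of groups 1 to 8, hoxa2b, hoxb8a, hoxc1a, hoxc4a, hoxc6a, hoxc8a and hoxd3a had from 12.9 (hoxd3a) to 33.8 (hoxb8a) there. Of groups 9 to 13, hoxa9b, hoxa10b, hoxa11b, hoxa13a, hoxb9a, hoxb10a, hoxc12b, hoxc13a and hoxc13b had from 12.9 (hoxa9b) to 37.8 (hoxa11b). Of these, hoxa13a, hoxb9a, hoxc6a and hoxc8a also reached 10 in egg, and none reached it in the embryos. The gene hoxa13b, like hoxa13a a gene of the distal fin, had 15.9 in sperm, 3.97 in egg, 24.7 in 1k-cell embryos and 4.52 in germ ring. The gene hoxb13a, of the tail end, had 32.8 in sperm, 0 in egg, 3.80 in 1k-cell embryos and 7.53 in germ ring. The 10 members under 10 were hoxa4a, hoxa5a, hoxa9a, hoxa11a, hoxb1a, hoxb4a, hoxb6b, hoxc5a, hoxc6b and hoxd4a, with at most 10 reads in any library. Of the 10 genes with both an a copy and a b copy by name among the members, 7 pairs had both copies highest in the same library. That was sperm each time. Sperm was highest for 70.8% of all 48 members, so no likeness of the copies is read from this. Some of these calls rest on few sperm reads, with 7 for hoxa11a, 8 for hoxb6b and 8 for hoxc6b.

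Between egg and sperm, 36 members had 10 or more normalized counts in either library. At least 2-fold higher in egg were 4 of them, and 25 were at least 2-fold lower, on the scale of the normalized count plus 1. Over all 12443 genes compared, 14.3% were higher and 61.3% lower. The median log2 ratio of the members was -2.29, against -1.80 for all genes. With counts of 0 set to 3 reads and no pseudocount the members' median was -1.63, a measure not given for all genes. The 4 higher in egg were hoxd9a, hoxd11a, hoxb7a and hoxa3a. Of the 48 members, 33 reached 10 in sperm and 13 in egg, so the split is partly set by the entry level. With no floor, 6 of 48 were higher and 32 lower, and the shares of all genes are not given here. The median log2 ratio was then -2.80 for the members and -1.81 for all genes. Median-of-ratios scaling moved the split to 7 higher and 16 lower and the median of all genes by 1.31. Of all 12358 genes, 3668 were higher and 5318 lower under that scaling. The summed level was 2.77-fold lower in egg as deposited (2.46 to 3.14) and 1.15-fold lower under that scaling.

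From egg to the 1k-cell stage, 19 members were compared, with 6 at least 2-fold higher and 7 lower, against 54.7% and 12.5% of all genes. Higher were hoxb2a, hoxd13a, hoxd12a, hoxb1b, hoxa13b and hoxd11a, which had counts of 0 to 9 reads in egg, and hoxd11a was within 2-fold with median-of-ratios size factors. Lower were hoxc9a, hoxc6a, hoxc8a, hoxa3a, hoxb7a, hoxb9a and hoxc3a, of which only hoxb7a and hoxb9a do not overlap another Hox gene. The members' median log2 ratio was 0.29 against 1.24 for all genes, and with median-of-ratios size factors it was -1.17, where the median of all genes was -0.14. The Hox sum was 1.21-fold higher in 1k-cell embryos as deposited (1.06 to 1.39) and 2.01-fold lower under median-of-ratios scaling, so no direction for the whole set is given.

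From the 1k-cell stage to germ ring, 13 members were compared, of which 8 were at least 2-fold lower and 0 higher. Over all 10917 genes compared, 34.2% were lower and 16% higher. The 8 were hoxd9a, hoxd10a, hoxd11a, hoxd12a, hoxd13a, hoxc11a, hoxa13b and hoxb2a. Of these, 7 belong to groups 9 to 13, which made up 9 of the 13 members compared. Of the 3 compared from groups 1 to 4, 1 was lower, and the 1 compared from groups 5 to 8 was within 2-fold. The gene hoxa13b was 5.47-fold lower (1.68 to 28.2), hoxd13a 8.83-fold lower (2.23 to 76.5) and hoxb2a, the exception in class, 3.52-fold lower (1.55 to 9.32). The 5 within 2-fold were hoxb1b, hoxc12a, hoxc3a, hoxb7a and hoxc10a. All 13 members reached 10 normalized counts in 1k-cell embryos, while hoxa13b, hoxb7a, hoxd10a, hoxd11a and hoxd13a were under 10 in germ ring. No member entered through germ ring alone, so the split is partly set by the entry level. With no floor, 20 of 37 members were lower and 2 higher, and the shares of all genes are not given here. The median log2 ratio was then -1.54 for the members and -0.41 for all genes. At the floor of 10, all 13 members had a read in both libraries, and without the pseudocount of 1 their median log2 ratio was -2.04. With the pseudocount the members' median was -1.74, against -0.43 for all genes. With median-of-ratios size factors it was -1.57, the median of all genes was 0.10, and 7 of 11 members were lower and 0 higher. Of all 10789 genes, 2408 were lower and 2562 higher with those size factors. The Hox sum was 3.28-fold lower in germ ring (2.75 to 3.92), and 2.28-fold lower under median-of-ratios scaling. Without hoxd9a to hoxd13a it was 2.19-fold lower (1.77 to 2.72), and 1.52-fold under that scaling. Between the same libraries gastrula markers went from 1708 to 74060 in sum and epidermal markers from 630 to 233686, and the part of this in the Hox ratios was not tested.

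Germ ring against egg, which shares both libraries with the comparisons above, had 16 members compared, with 2 at least 2-fold higher and 12 lower, against 48.1% and 19.8% of all genes. The 2 higher were hoxb1b and hoxb2a. For hoxb2a, at 0 in egg, the bound is at least 1.77-fold. The median log2 ratio was -1.64 for the members and 0.88 for all genes. In egg 13 members reached 10 normalized counts and in germ ring 8, so this split too is partly set by the entry level. With no floor, 10 of 34 were higher and 20 lower, and the shares of all genes are not given here. The median log2 ratio was then -1.44 for the members and 0.91 for all genes.

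The pathways around the Hox genes were described from the 1k-cell stage to germ ring with 5 lists. Of the 27 Polycomb and MLL genes compared, the repressors and activators that maintain Hox states, 16 were lower by 2-fold or more and 0 were higher, against 34.2% and 16% of all genes, and the list's median was -1.50 on the log2 scale. With median-of-ratios size factors the split was 12 lower and 2 higher of 26, beside 2408 lower and 2562 higher of all 10789 genes. The lowest ratios were those of the Polycomb repressive complex 1 genes cbx8b (3088 in 1k-cell embryos and 237 in germ ring, 13.1-fold lower), phc2b (1316 and 218) and bmi1a (7229 and 1293). The highest ratios were those of cbx7a (8.56 and 16.6), cbx2 (10390 and 15826) and rnf2 (5851 and 7716), the last being the ubiquitin ligase of that complex. Among 9 TALE cofactors, the Pbx, Meis and Pknox proteins that bind DNA together with Hox proteins, 3 were lower and 0 higher, beside those shares of all genes, and their median of -0.19 became 0.46 with median-of-ratios size factors. The lower genes were pknox2, 344 and 101, meis1, 28.5 and 9.04, and pbx1a, 38.0 and 13.6. The highest ratios, all within 2-fold, were 1.29 for pknox1.1, 1.15 for pbx2 and 1.08 for meis4.1a.

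Many genes listed for axis patterning were higher in germ ring, and whether they act on the Hox genes here was not tested. In the list of hindbrain and posterior patterning genes 15 of 22 were at least 2-fold higher in germ ring and 2 were lower, against 16% and 34.2% of all genes, and the list's median was 4.00 on the log2 scale. Among the highest ratios were those of sp5l, a Wnt target, with 3.80 in 1k-cell embryos and 1927 in germ ring, and of vgll4l, a vestigial-like cofactor gene, with 17.1 and 5535. At the low end stood hnf1bb, a hindbrain regulator, with 44.7 and 1.51, and egr2b, a rhombomere gene, with 15.2 and 0, while meis3, with 12.4 and 6.03, had a log2 ratio of -0.93 on the scale of the normalized count plus 1. Of 12 Caudal, ParaHox, even-skipped and related homeobox genes, 6 were higher and 5 lower, beside the same 16% and 34.2%. The gene cdx4, a Caudal activator of posterior Hox genes, had 3.80 and 429, a 113-fold difference (43.6 to 417). The gene eve1, next to hoxb13a on the chromosome, had 0 and 1767, at least 620-fold higher, and gbx1, of the hindbrain, had 0 and 297. Lower were pdx1, the pancreas ParaHox gene, with 229 and 31.6, dlx6a, a distal-less gene, with 940 and 146, and evx1, an even-skipped homologue, with 359 and 69.3.

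Of 16 retinoic acid genes, 6 were higher and 4 lower, beside 16% and 34.2% of all genes. With median-of-ratios size factors 3 were lower. The binding protein gene crabp2b had 0 and 2912, at least 1021-fold higher. The gene aldh1a2, which makes retinoic acid, had 0.951 (1 read) and 205. The gene dhrs3b, whose enzyme returns the precursor retinaldehyde to retinol, was 9.94-fold higher (6.31 to 16.4). The lowest ratios were those of the receptor genes rxrga, with 47.5 and 1.51 (1 read), and rarga, with 435 and 82.9, and of crabp1b, for another binding protein, with 33.3 and 6.03. In the same germ ring library 8 of 48 Hox members reached 10 normalized counts, against 73.4% of all genes. The highest was hoxc3a at 37.7, and levels of different genes are not compared, as gene length is not corrected for. No read was found there for 23 members, the same number as in egg, and the share of all genes is not given here.

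**Figure D5:**
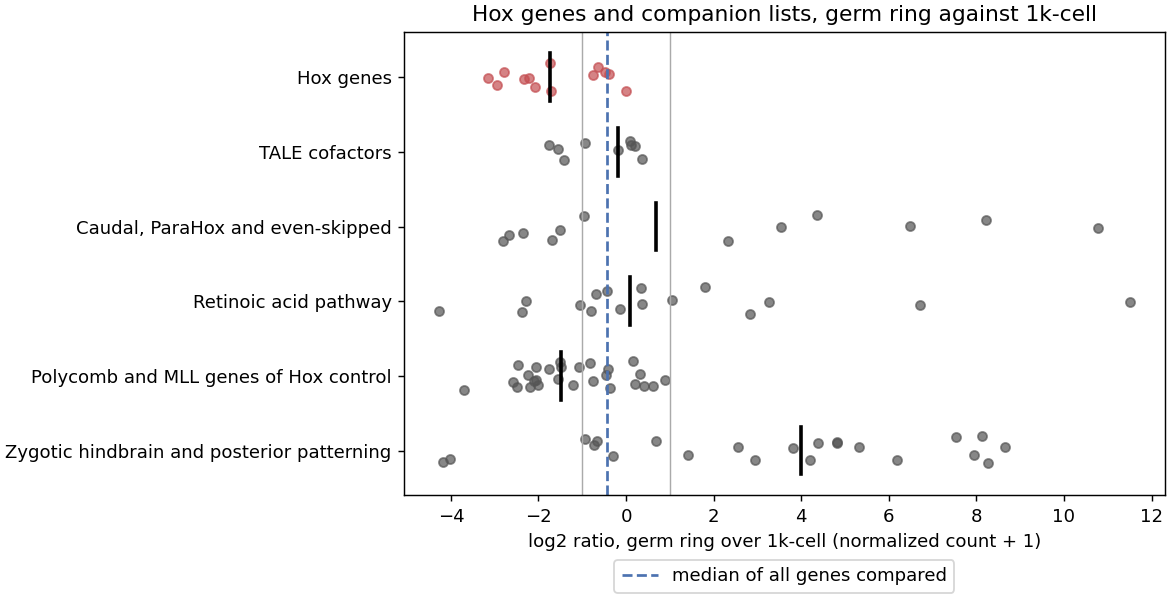
Each point is a gene at 10 or more normalized counts in the germ ring or 1k-cell library, placed by its log2 ratio of germ ring over 1k-cell on the scale of the normalized count plus 1. Black bars are list medians, the dashed line is the median of all genes compared at -0.43, and grey lines mark 2-fold. With the deposited scaling all 13 Hox points lie below 0, whereas most hindbrain and posterior patterning genes lie to the right. Under median-of-ratios scaling some Hox points turn above 0, hoxb1b and hoxc3a among them, and this is not a full list.

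The same lists were counted in the other comparisons, where the counts depend on the scaling of the egg library. In egg against sperm, 7 of 11 TALE cofactors were lower and 1 higher, and with median-of-ratios size factors 1 of 9 was lower and 2 higher. Of the Polycomb and MLL genes 15 of 26 were lower and 6 higher, which became 9 and 9. Caudal and related genes (10 of 14 lower, then 9 of 14), retinoic acid genes (16 of 23, then 11 of 24) and patterning genes (15 of 21, then 11 of 20) had more members lower than higher under both scalings. Over all genes 61.3% were lower as deposited. With median-of-ratios size factors 5318 of all 12358 genes were lower and 3668 higher, so more genes were lower there too.

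From egg to the 1k-cell stage, Polycomb and MLL genes had 18 of 27 higher and 2 lower, and with median-of-ratios size factors 14 of 26 higher and 7 lower. The medians of the other 4 lists turned from positive to negative with those size factors. Their higher and lower members went from 3 and 1 to 2 and 4 for TALE cofactors, from 5 and 1 to 3 and 3 for Caudal and related genes, from 9 and 4 to 7 and 9 for retinoic acid genes, and from 8 and 2 to 7 and 6 for patterning genes. Over all genes 54.7% were higher as deposited. With those size factors 3246 of all 10883 genes were higher and 3683 lower.

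In germ ring against egg, patterning genes had 16 of 19 higher and 1 lower, then 15 of 20 higher and 3 lower with those size factors. Retinoic acid genes had 12 of 18 higher and 4 lower, then 10 of 19 and 6. Medians turned from positive to negative for the other 3 lists. Their higher and lower members went from 11 and 5 to 5 and 8 for Polycomb and MLL genes, from 6 and 2 to 4 and 5 for Caudal and related genes, and from 2 and 2 to 2 and 4 for TALE cofactors. Over all genes 48.1% were higher as deposited. With those size factors 3916 of all 11276 genes were higher and 3615 lower.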

How the data were processed

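RNA-seq of 4 zebrafish libraries (1 per group) was used out of 19 samples. Per the labels' protocols, mRNA was selected with poly-T beads and made into double-stranded cDNA with the TruSeq RNA kit, which does not mark strand, so sense and antisense reads cannot be told apart. The deposited values are a signal of TMM-normalized read counts per gene, per the file headers, made by the authors with 1 factor per library. The submitters' processing notes name BWA 0.6.1-r104, edgeR and Zv9 (danRer7). The counting tool, the annotation and any filters were not given in the sources used here.

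The tables hold 15328 entries and 14244 names. For 718 repeated names the entry with the highest sum was kept, and none of them is a Hox gene. Values were whole multiples of 1 read within 0.01 reads in all 4 libraries, which gave the read counts. Sperm's step of 0.993 lies near 1. Ratios between libraries used genes at 10 or more normalized counts in either, with a pseudocount of 1 for counts past 2-fold and medians. Folds of single genes and sums are ratios without a pseudocount, with exact 95% intervals (Clopper-Pearson for ratios and shares, Poisson for levels). These cover counting error only, since reads carry no molecular identifiers. For folds a count of 0 was set to 3 reads, so such a fold is not the lower end of an interval. No fold is given where both counts are 3 or fewer. On simulated counts the procedure recovered 200 of 200 genes set 4-fold apart in each of the 4 comparisons, which checks the arithmetic only. Those genes were drawn from genes with counts above most Hox values, so calls at Hox read depth were not tested.

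Members at 50 or more in any library were named with all values, those from 10 to under 50 by highest value or range, and from each companion list the 3 highest and 3 lowest ratios of germ ring against 1k-cell, of which 1 gene is not reported here. Values in all libraries for hoxa3a, hoxa13b, hoxb2a, hoxb13a, hoxc9a, hoxc12a, hoxd10a and hoxd13a were added after they were seen. Members and lists were chosen with earlier results of these data known.

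The a and b copies were paired by name among the 48 members. Gene order and overlaps come from RefSeq for GRCz12tu, where all 48 members matched, by name. It has 49 protein-coding Hox genes, and hoxc11b was not analysed here. In it, 18 members overlap another Hox gene. The hMeDIP (4 samples and 1 input), bisulfite (9) and TAB (1) samples were not used here. Alternatives were other pseudocounts, floors, scalings, cutoffs and treatments of repeated names, and the removal of overlapping members. Python 3.11.15, numpy 2.4.6, pandas 2.3.3, scipy 1.17.1 and matplotlib 3.10.9 were used.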

Additional observations from a re-analysis of the deposited data

How the results depend on the processing

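Each group has 1 library, so the spread between animals is unknown and no library could be left out. No paired analysis was possible because each group has a single library and the labels give no replicate numbers. Scaling moved most comparisons. Egg against sperm had 7 higher and 16 lower members with median-of-ratios size factors and 7 higher under upper-quartile scaling, and the median log2 ratio of -2.29 became -0.66 and -0.85, and -1.61 at equal totals. For 1k-cell against egg the median of 0.29 reversed to -1.17 (median-of-ratios), -1.21 (upper-quartile) and -0.33 (equal totals), and 11 members were lower under each of the first 2. The cause was not tested. The medians of all genes moved by -1.38, -1.45 and -0.35. In germ ring against egg the median was -2.41 and -2.45 under these 2 scalings. The germ ring to 1k-cell comparison kept 0 members higher under each scaling tried, and its median kept its sign under every alternative run.

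The floor also mattered. With no floor, higher and lower members were 2 and 20 for germ ring against 1k-cell, 10 and 20 for germ ring against egg, and 17 were higher for 1k-cell against egg, while the median for egg against sperm was -2.80. With a floor of 50 they were 2 and 5 (egg against sperm), 2 and 2 (1k-cell against egg), 0 and 4 (germ ring against 1k-cell) and 0 and 5 (germ ring against egg), and the medians of the first 3 were -1.63, 0.82 and -2.33. The shares of all genes past 2-fold at these other floors are not given here. A pseudocount of 5 gave -1.70 for egg against sperm. A 4-fold cutoff left 5 members lower in germ ring against egg. The last alternatives, which follow, were chosen after seeing the data. Without overlapping members 2 were lower in 1k-cell against egg, and 1 higher and 7 lower in germ ring against egg. Size factors computed without sperm gave 1 higher in germ ring against egg.

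Members at 10 or more changed with the measure of low values. At 50 normalized counts they were 7 in sperm, 5 in egg, 5 in 1k-cell embryos and 0 in germ ring. At 10 reads they were 7 in egg and 5 in germ ring, and at 3 reads 26 in 1k-cell embryos and 13 in germ ring. The summed level under median-of-ratios scaling was 1275 in sperm, 1106 in egg and 551 in 1k-cell embryos, and at equal totals 716 in egg and 691 in 1k-cell embryos. The other 88 values under the settings first chosen, and 10 under those chosen after seeing the data, stayed within 1.5 times for counts, within 0.5 for median log2 ratios or inside the counting interval for sums. Egg is the shallowest library, so a member at 0 there is the least certain.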

Other observations

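The genes that flank the clusters had levels of their own. Beside the hoxba cluster, eve1 was at 0 in 1k-cell embryos and at 1767 in germ ring, while its neighbour hoxb13a had 3.80 and 7.53. On the other side of that cluster cbx1a, a heterochromatin protein 1 gene, had 3900 in sperm, 11690 in egg, 12993 in 1k-cell embryos and 19369 in germ ring. The gene cbx5, of the same family and next to hoxc1a, had 4287, 16187, 13894 and 21233 in the same order. Beside hoxa13a, hibadha had 571, 103, 628 and 500, and beside hoxa13b, hibadhb had 648, 363, 851 and 636.

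The 10 entries for the microRNA genes mir10 and mir196, which lie in Hox clusters, had at most 1 read. Both reads were in sperm, for mir196a-1 and mir196d. The libraries were selected for poly-A RNA with fragments chosen by size, so mature microRNAs are not measured by them.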
